A study of Mus musculus with 75 samples.

Results

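The 7 genes described here encode enzymes and metal-binding proteins that act on itaconate, nitric oxide, superoxide and metal ions. They were followed in enteric glia of mice given LPS (lipopolysaccharide, a bacterial endotoxin) or PBS (phosphate-buffered saline). The genes are Acod1, Nos2, Gch1, Cybb, Sod2, Mt1 and Mt2. They were found by symbol in the first column of both deposited count tables, of 21051 and 21076 genes, and all 7 were present in each. The list was chosen by the differences between LPS and PBS levels measured in these libraries at 2 h and 24 h. Their changes with LPS are therefore a description. How many members passed the threshold is counted beside the share of all genes, and nothing is read from that count. Differences by genotype after PBS, by gut region without LPS and by plexus were tested. Those by genotype after LPS are a description too, because the libraries with LPS entered the choice.

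As background, Acod1 (Irg1) is the mitochondrial enzyme that makes itaconate from the citric acid cycle intermediate cis-aconitate, and it is best known from macrophages exposed to LPS. Nos2, the inducible nitric oxide synthase, makes nitric oxide from arginine. Gch1 (GTP cyclohydrolase) catalyses the rate-limiting step towards tetrahydrobiopterin, a cofactor of nitric oxide synthases. Cybb is the membrane subunit of the phagocyte NADPH oxidase, which produces superoxide, and Sod2 is the mitochondrial superoxide dismutase, which removes it. Mt1 and Mt2 are metallothioneins, small cysteine-rich proteins that bind zinc and copper and whose transcription responds to metals, glucocorticoids and inflammation. Enteric glia are the glial cells of the nerve plexuses of the gut wall.

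The series holds 75 libraries in 3 experiments, all from adult mice carrying a green fluorescent reporter of glial cells. Untreated mice gave 6 small-intestinal and 5 colonic libraries from each of the myenteric plexus (between the muscle layers) and the submucosal plexus. At 2 h after 1 intraperitoneal injection of PBS or of LPS at 2 mg/kg, the myenteric plexus of reporter mice gave 4 libraries for each region and treatment. At 24 h the myenteric plexus was sampled in Gpr37WT reporter mice (here wild type) and in Gpr37-/- reporter mice (knockout), which lack a G protein-coupled receptor of glia. In the 24 h wild type, PBS gave 6 small-intestinal and 4 colonic libraries and LPS gave 4 and 5. In the knockout the numbers were 4 and 5 with PBS and 5 and 4 with LPS. A mouse at 24 h could give a library of each region, so the regions share animals there and were not tested against each other. How the glia were isolated is not given in the sources used here.

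Total counts ran from 1990744 to 33283346 per library, and levels are given as CPM, counts scaled to library size with the TMM factors of edgeR. Of 9 glial markers, 6 (Sox10, S100b, Gfap, Ednrb, Foxd3 and Erbb3) were above 0 in all 75 libraries, and so were 6 of 6 smooth muscle, 5 of 5 fibroblast, 2 of 2 interstitial cell of Cajal and 5 of 7 neuron markers. In the 2 h colon the smooth muscle markers summed to 19382 to 72124 CPM with PBS and 19345 to 59300.3 CPM with LPS, and the 9 glial markers to 1005 to 2586 and 1196 to 1977 CPM. Gpr37 held 3 or fewer counts in 17 of 18 knockout libraries, with 9 in the other, but also in 4 of the 19 libraries labelled wild type. All 4 were LPS libraries, from mice 3 (both regions), 5 (colon) and 8 (colon), while the small-intestinal library of mouse 8 held 100. Values without mouse 3 are given below for Cybb and Nos2 in wild-type colon and for the genotype comparisons of Sod2, Acod1 and Mt2 with LPS. At 24 h the mitochondrial share of counts had a median of 15.4% in the 12 libraries of mice numbered 10 and below and of 4.57% in the 25 libraries of mice 11 and above. Values of some of the 7 genes within the latter set are therefore given as well. In the wild type that set keeps LPS mice 13 and 16 only, in each region. Every wild-type PBS colon mouse is in it, while LPS colon mice 3, 5 and 8 are not. The division and the treatment thus cannot be fully told apart there. In these bulk libraries, fewer cells of a type and less RNA per cell cannot be told apart.

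Per the annotation of GRCm38, the build named in the submitters' processing notes, Acod1 lies at chr14:103046977-103056573 and Gch1 at chr14:47153895-47189413. Nos2 lies at chr11:78920787-78960254, Cybb at chrX:9435252-9487771 and Sod2 at chr17:13006846-13040063. Mt1 (chr8:94179082-94180327) and Mt2 (chr8:94172664-94173568) are neighbours on the same strand. An antisense gene, Gm45774, overlaps 432 of the 588 exon bases of Mt2, and because the counting strand is not given in the sources used here, its reads and those of Mt2 cannot be told apart. RefSeq's promoter table (build GRCm38.p6) held 6 of the 7 genes, and the bases upstream of the start are shown for Acod1, Sod2, Mt1 and Mt2, whose levels varied together from library to library, leaving out annotated exon bases of the same strand. Capitals mark matches to 3 motifs searched on both strands. These were the kappaB motif, bound by NF-kB factors, the core of the interferon-stimulated response element (GAAA, any 2 bases, GAAA), and the core TGCNCNC of the metal response element bound by MTF1.
Acod1: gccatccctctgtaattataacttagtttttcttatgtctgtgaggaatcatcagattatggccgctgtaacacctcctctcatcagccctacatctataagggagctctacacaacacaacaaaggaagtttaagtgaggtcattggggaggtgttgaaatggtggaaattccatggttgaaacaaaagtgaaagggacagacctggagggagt
Sod2: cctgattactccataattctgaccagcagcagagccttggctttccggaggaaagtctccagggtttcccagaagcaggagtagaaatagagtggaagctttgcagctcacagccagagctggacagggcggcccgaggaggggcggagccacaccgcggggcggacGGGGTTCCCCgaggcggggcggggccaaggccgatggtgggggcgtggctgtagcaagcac
Mt1: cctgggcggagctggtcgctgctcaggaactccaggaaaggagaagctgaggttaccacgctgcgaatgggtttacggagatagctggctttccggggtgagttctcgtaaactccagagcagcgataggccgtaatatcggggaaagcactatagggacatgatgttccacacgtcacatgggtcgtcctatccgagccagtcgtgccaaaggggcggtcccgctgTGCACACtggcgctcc
Mt2: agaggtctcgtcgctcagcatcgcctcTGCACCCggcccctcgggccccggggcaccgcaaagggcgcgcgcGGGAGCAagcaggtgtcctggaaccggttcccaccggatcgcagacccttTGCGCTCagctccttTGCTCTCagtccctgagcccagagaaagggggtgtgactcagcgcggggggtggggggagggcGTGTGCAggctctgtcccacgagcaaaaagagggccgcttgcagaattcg
These windows are chr14:103046762-103046976, chr17:13007589-13007816, chr8:94178839-94179081 and chr8:94172368-94172617, all on the plus strand and read 5′ to 3′. The Sod2 window lies inside the gene span given above, because the RefSeq start it was taken from is downstream of the start of that span, and the same holds for Cybb. Sod2 held 1 kappaB match, whose letters fitted the degenerate motif on both strands, at position -83 relative to the RefSeq start. Mt1 held 1 metal response core, at position -23, and Mt2 held 5, from position -223 to position -50. The Acod1 window held none of the 3 motifs. Among the genes not printed, Gch1 held 1 kappaB match and Cybb 3 interferon-response cores. Of the 32851 promoters in the table, 3.9% held the kappaB motif in their 250 upstream bases, 2.98% the interferon-response core and 44.4% the metal response core. A match describes the letters only and shows no binding.

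Acod1 was at or near 0 after PBS and held counts in all but 2 of the LPS libraries. At 2 h all 8 PBS libraries held 0 Acod1 counts. The LPS libraries of the small intestine gave 33.6, 33.8, 44.2 and 61 CPM, and those of the colon 0, 16.2, 44.4 and 77.6 CPM. Every small-intestinal library with LPS was thus above every PBS library, while 1 colon library, that of female 1, stayed at 0. Against a floor of 3 counts per library, Acod1 was at least 29.5-fold higher with LPS in the small intestine and at least 33.9-fold higher in the colon (at least 19.8-fold without LPS male 4). At 24 h the wild-type small intestine gave 0 to 1.07 CPM over 6 PBS libraries, 4 of them at 0, and 88.2, 92.3, 111 and 129.6 CPM with LPS. Wild-type colon gave 0, 0, 0 and 3.03 CPM with PBS and 33.4, 70.3, 129, 173 and 381 CPM with LPS. In both regions the PBS library of mouse 14 was the highest of its group, and the treatments did not overlap. The log2 fold change was 8.86 ± 1.36 (SE) for the small intestine and 7.83 ± 1.51 for the colon. Without mouse 14, the remaining PBS colon libraries were all at 0 and the small-intestinal ones held 1 count in all, so the size of these folds rests on that mouse.

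In the knockout small intestine, Acod1 held 1 count over 4 PBS libraries and 1365 over 5 LPS libraries, at 27.7, 35.8, 38.8, 41.7 and 42.1 CPM. The ratio of these summed counts, scaled by depth, was 2164 (95% exact binomial interval 388 to 85536, which covers counting error only). In knockout colon all 5 PBS libraries were at 0 and the LPS libraries gave 0, 18.7, 19.2 and 113 CPM. The library at 0 came from mouse 11, whose small-intestinal library gave 41.7 CPM. Acod1 was at least 48.3-fold higher with LPS in knockout colon, and at least 16.2-fold without mouse 2.

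Markers of blood-borne cells were followed beside these levels at 24 h, and those of neutrophils reached higher sums with LPS in all 4 groups, with overlap in 3 of them. The summed CPM of 10 neutrophil markers ran from 2.05 to 20.0 with PBS and from 19.2 to 889.8 with LPS in the wild-type small intestine. In wild-type colon the ranges were 1.06 to 151 and 13.4 to 2333. Knockout small intestine gave 0.661 to 5.69 and 11.8 to 1856, and knockout colon 0.243 to 59.9 and 5.08 to 507. Cxcr2, a neutrophil chemokine receptor, was at 0 in all PBS libraries and also in all 5 wild-type colon libraries with LPS. The 5 monocyte markers summed to 15.1 to 204 CPM with PBS and 248 to 705 with LPS in the wild-type small intestine, and to 94.6 to 160.4 and 37.7 to 3487 in wild-type colon, where the ranges overlapped. In the knockout they summed to 0.397 to 47.6 and 139.7 to 852 CPM in the small intestine and 9.47 to 571 and 180.4 to 451 CPM in the colon. The 6 lymphocyte markers overlapped between treatments in all 4 groups, with 1.22 to 905 and 1.28 to 182 CPM in wild-type small intestine, 0.281 to 10.8 and 0 to 2646 in wild-type colon, 0.693 to 10.7 and 1.47 to 113 in knockout small intestine, and 0.535 to 1597 and 0 to 35.1 in knockout colon. The 11 macrophage markers overlapped between treatments in all 4 groups. In the wild type they summed to 166 to 1693 and 363 to 1388 CPM in the small intestine and 701 to 1487 and 311 to 2645 in the colon. In the knockout they summed to 61.6 to 613 (median 411) CPM with PBS and 355 to 2694 (median 1383) with LPS in the small intestine, and to 302 to 1833 and 873 to 1759 in the colon. The 3 mesothelial markers were lower with LPS in the wild-type small intestine, at 471 to 2280.3 CPM with PBS and 144 to 317 with LPS without overlap, and summed to 20.8 to 2606 and 236 to 781 in the knockout small intestine. The part of these cells in the levels of the 7 genes was not tested. At 2 h the neutrophil markers summed to 0.975 to 11.5 CPM with PBS and 8.64 to 159 with LPS in the small intestine and to 0.919 to 7.67 and 0 to 8.25 in the colon. The lymphocyte markers then summed to 6.42 to 18.6 CPM with PBS and 18.7 to 917 with LPS in the small intestine, without overlap, and to 16.8 to 60.4 and 0.821 to 62.7 in the colon.

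**Figure D1:**
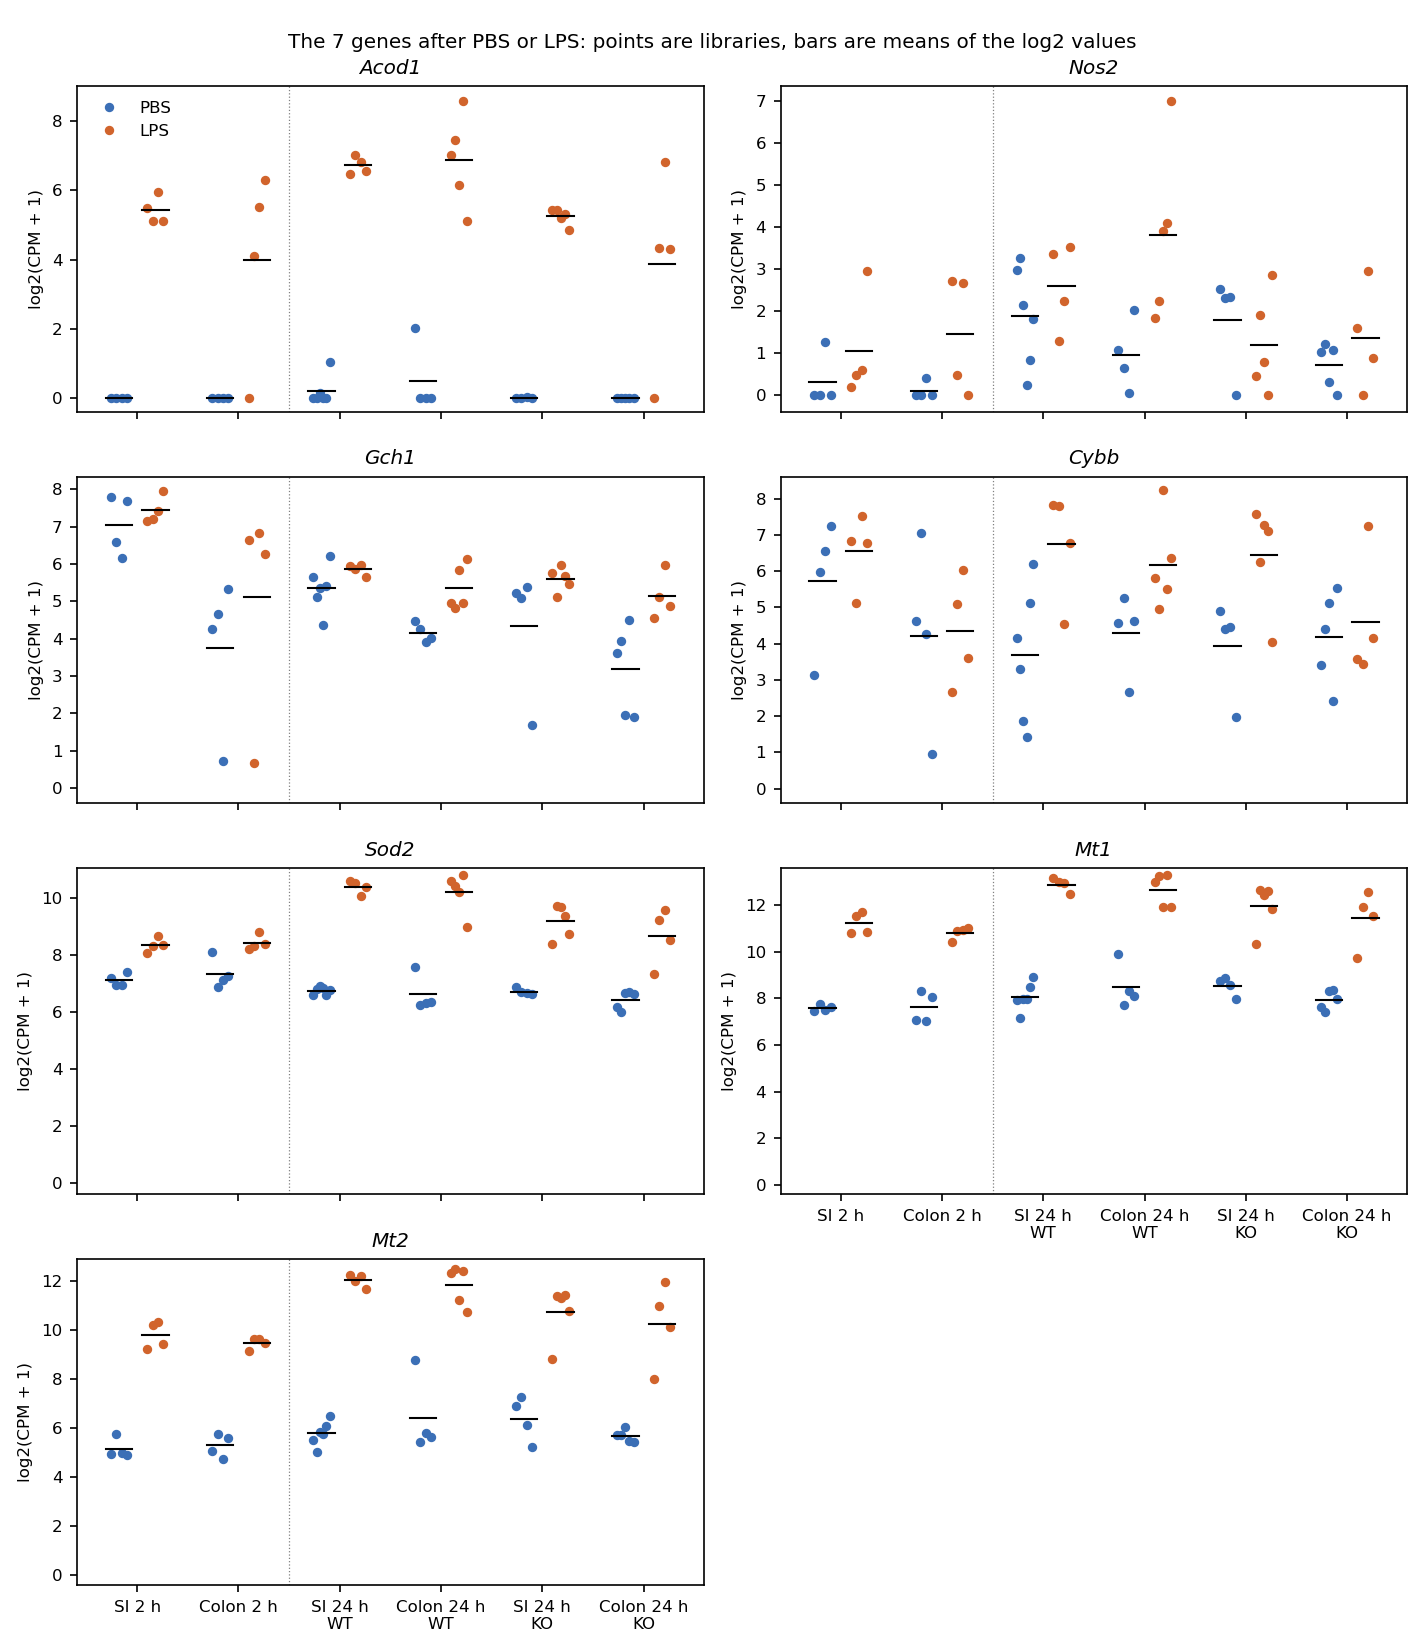
Levels of the 7 genes as log2(CPM + 1) after PBS or LPS at 2 h and at 24 h, in the small intestine (SI) and colon of wild-type (WT) and knockout (KO) mice. Points are libraries and bars are means of the log2 values. The LPS points of Acod1, Sod2, Mt1 and Mt2 lie above the PBS points of the same group, apart from the colon libraries at 0 for Acod1.

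Nos2 showed no such shift across groups and had too few counts at 2 h to pass the filter on low counts. Nos2 then gave 0, 0, 0 and 1.41 CPM with PBS and 0.136, 0.402, 0.52 and 6.75 CPM with LPS in the small intestine. Colon libraries held 1 Nos2 count over the PBS libraries and 40 over the LPS libraries, at 0, 0.401, 5.34 and 5.57 CPM. That is a ratio of 37.6 with a 95% exact binomial interval of 6.37 to 1521 for counting error, carried by 2 of 4 libraries.

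At 24 h the wild-type small intestine gave Nos2 values from 0.187 to 8.62 (median 2.97) CPM with PBS and of 1.46, 3.7, 9.24 and 10.5 CPM with LPS, which overlap. Wild-type colon gave 0.0351, 0.567, 1.09 and 3.09 CPM with PBS and 2.55, 3.72, 13.9, 16.1 and 128 CPM with LPS, and only the lowest LPS library fell inside the PBS range. Its log2 fold change in wild-type colon was 4.78 ± 1.52, with the highest library from mouse 8. The same quantity was 2.92 without that of mouse 8, 4.99 without mouse 3 and 1.43 among mice 11 and above. In the knockout, Nos2 gave 0 to 4.75 CPM with PBS and 0 to 6.24 with LPS in the small intestine, and 0 to 1.34 and 0 to 6.7 in the colon, all overlapping. The knockout colon difference of Nos2 was 1.61 ± 1.30, and -0.23 among mice 11 and above.

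Gch1 held counts in every library. At 2 h the small intestine gave 70.3, 95.1, 204 and 218 CPM with PBS and 140.3, 145, 170.1 and 248 CPM with LPS, with overlapping ranges, 2 PBS libraries below and 1 LPS library above all of the other group, and a log2 difference of 0.26 ± 0.89. Colon libraries gave 0.667, 18.2, 24.5 and 39.1 CPM with PBS and 0.601, 75.4, 98.3 and 113 CPM with LPS. In each colon group 1 library was near 0, and the other 3 LPS libraries were above all PBS libraries. At 24 h the ranges of the 2 treatments did not overlap in the colon and overlapped in the small intestine. The adjusted p of the edgeR test was 0.116 in wild-type and 0.117 in knockout colon. How many of all genes had separate ranges in these groups was not counted. Wild-type colon gave 13.9, 15.1, 18.2 and 21.1 CPM with PBS and 27.4, 30.2, 30.2, 55.9 and 69.7 CPM with LPS, a log2 difference of 1.32 ± 0.54. Knockout colon gave 2.7, 2.91, 11.2, 14.4 and 21.7 CPM with PBS and 22.5, 28.6, 33.8 and 62.2 CPM with LPS, a log2 difference of 1.78 ± 0.53. In the small intestine the log2 differences were 0.42 ± 0.50 for wild-type and 0.78 ± 0.53 for knockout mice. Among mice 11 and above, the colon differences were 0.78 and 0.85. Whether region changed the response at 24 h was not tested.

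Cybb was spread widely within groups. At 2 h the small intestine gave 7.73, 62.4, 92.9 and 150.4 CPM with PBS and 33.6, 109, 112 and 182 CPM with LPS, and the colon 0.919, 18.3, 23.6 and 132 and 5.35, 11.1, 33.3 and 64.1 CPM. Their log2 differences were 0.48 ± 1.01 and -0.63 ± 1.03. Wild-type small intestine at 24 h gave Cybb values from 1.69 to 72.6 (median 12.8) CPM with PBS and of 22.3, 109, 223 and 228 CPM with LPS. Wild-type colon gave 5.34, 22.7, 23.8 and 37.4 and 30.1, 44.6, 55.3, 81.1 and 300.2 CPM, the highest from mouse 3. The Cybb log2 differences at 24 h were 2.67 ± 0.90 and 2.20 ± 1.00 in the wild type and 2.65 ± 1.02 and 1.04 ± 0.94 in the knockout, in the small intestine and colon respectively. PBS and LPS libraries overlapped in all 6 comparisons of Cybb. Some of these values rested on 1 library. The wild-type colon difference was 1.26 without mouse 3. The knockout colon difference was -0.85 without LPS mouse 2, and the 2 h colon difference was 0.99 without PBS male 2, both of the opposite sign.

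Sod2 was well expressed after PBS in every library and higher after LPS at both times. At 2 h the small intestine gave 122, 122, 145 and 167 CPM with PBS and 263, 316, 319 and 405 CPM with LPS. The colon gave 117, 137, 151 and 270.1 CPM with PBS and 293, 316, 329 and 438 CPM with LPS. No PBS library reached the lowest LPS library in either region. The log2 differences of Sod2 were 1.23 ± 0.26 and 1.03 ± 0.26.

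At 24 h the wild-type small intestine gave Sod2 values from 94.7 to 117 (median 108) CPM with PBS and of 1065, 1330.2, 1464 and 1522 CPM with LPS. Wild-type colon gave 73.9, 78.2, 79.3 and 187 CPM with PBS, the highest again from mouse 14, and 500.3, 1176, 1343, 1521 and 1777 CPM with LPS. The treatments were clearly apart in both regions, with log2 differences of 3.67 ± 0.34 and 3.59 ± 0.39. In the knockout, the small intestine gave 98.1, 98.7, 101 and 115 CPM with PBS and 330.5, 424, 651, 804 and 838 CPM with LPS. Knockout colon gave 62.3, 71.4, 97.4, 100.1 and 101 and 157, 363, 590.0 and 761 CPM, the lowest LPS value from mouse 11. These groups were apart as well, with Sod2 log2 differences of 2.56 ± 0.37 and 2.44 ± 0.35.

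The 2 metallothioneins had the largest log2 differences at 2 h among the members that were in the fit and held counts in both groups, which leaves out Nos2 and Acod1. In the small intestine Mt1 gave 174, 182, 199 and 216 CPM with PBS and 1796, 1867, 2942 and 3369.8 CPM with LPS, and in the colon 131, 135, 265 and 316 and 1366, 1934, 1953 and 2105 CPM. Mt2 gave 28.7, 30.0, 30.7 and 53.1 CPM with PBS and 607, 689, 1197 and 1299.8 CPM with LPS in the small intestine, and 26, 32.4, 47.3 and 53.7 and 571, 713, 798 and 802 CPM in the colon. Every LPS library was several times above every PBS library of its region. Mt1 log2 differences were 3.69 ± 0.32 for small intestine and 3.12 ± 0.32 for colon, and those of Mt2 were 4.74 ± 0.35 and 4.18 ± 0.34.

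At 24 h Mt1 in the wild-type small intestine ran from 142 to 488 (median 251) CPM with PBS and was at 5675, 7924, 8181 and 9156 CPM with LPS. In wild-type colon Mt1 was at 211, 273, 322 and 949.9 CPM with PBS and 3847, 3884, 8110.0, 9788 and 10042 CPM with LPS. The highest PBS value, from mouse 14, was above the LPS value of knockout mouse 11 in the colon (857 CPM) but below all wild-type LPS values. Mt2 ran from 31.4 to 90.4 (median 54.8) CPM with PBS and was at 3269, 4136, 4764 and 4822 CPM with LPS in the small intestine, and at 42, 48.6, 55.5 and 443 and 1717, 2367, 5161, 5409 and 5846 CPM in the colon. Log2 differences in the wild type were 4.74 ± 0.48 and 4.02 ± 0.54 for Mt1 and 6.22 ± 0.67 and 4.80 ± 0.74 for Mt2, in the small intestine and colon. Leaving out mouse 14 in both regions moved the colon differences to 4.76 for Mt1 and 6.42 for Mt2.

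Knockout libraries with LPS gave Mt1 values of 1307, 3654, 5510.4, 6246 and 6456 CPM in the small intestine and 857, 2982, 3851 and 6133 CPM in the colon, where PBS gave 254 to 470.0 and 168 to 331 CPM. Mt2 values with LPS were 454, 1746, 2525, 2658 and 2734 CPM in the small intestine and 255, 1115, 2013 and 3944 CPM in the colon, against 36.9 to 151 and 41.9 to 65.5 CPM with PBS. In both regions the lowest LPS value of both genes came from mouse 11, and it was still above the highest PBS value. The log2 differences were 3.60 ± 0.53 and 3.77 ± 0.50 for Mt1 and 4.43 ± 0.72 and 5.17 ± 0.69 for Mt2.

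**Figure D2:**
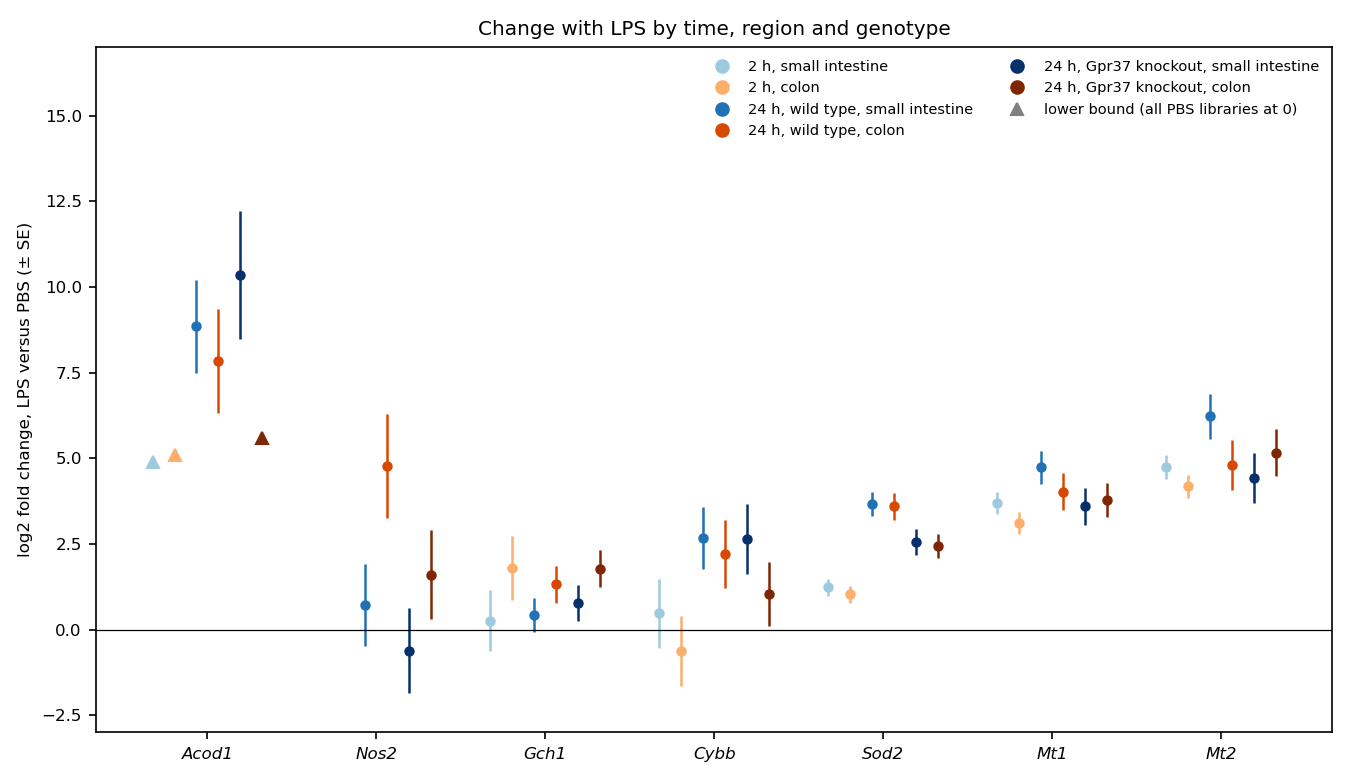
Log2 fold change of each gene between LPS and PBS with its standard error, for 2 h and 24 h, both regions and both genotypes. Triangles are lower bounds for Acod1 where all PBS libraries were at 0. Sod2, Mt1 and Mt2 lie above 0 in all 6 comparisons, while Cybb at 2 h lies on both sides of 0.

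Counted by the threshold used throughout (Benjamini-Hochberg adjusted p under 0.05 over all genes, edgeR quasi-likelihood test), 4 of the 6 members in the 2 h fit passed in the small intestine, where 1.1% of 13107 genes did, and 2 of 6 in the colon, where 0.778% did. At 24 h, 4 of 7 passed in the wild-type small intestine (7.17% of 14903 genes), 5 of 7 in wild-type colon (7.96%), 4 of 7 in knockout small intestine (0.718%) and 4 of 7 in knockout colon (0.718%). All members that passed were higher with LPS. The fifth in wild-type colon was Nos2 (adjusted p = 0.0467), which passed in 6 of 19 alternatives and did not without mouse 3 (0.0557) or among mice 11 and above (0.525). Because the list was drawn from such contrasts, nothing is read from these counts. The median log2 difference of the members was 2.46 in each region at 2 h. It was 3.67 and 4.02 in the wild type and 2.65 and 2.44 in the knockout at 24 h, and over all genes tested the 6 medians lay between -0.13 and -0.0022. With Acod1 at its lower bound where all PBS libraries were at 0, the members' medians were the same. Within mice 11 and above, the Mt2 log2 differences were 6.25 and 5.25 in the wild type and 3.92 and 4.55 in the knockout. Those of Sod2 in the same mice were 3.53, 3.80, 2.40 and 2.27.

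Whether the response to LPS differed between colon and small intestine was looked at for 2 h with a region-by-LPS term. It is a difference of the contrasts that chose the genes, so its values are a description. No gene passed (0% of 13107, with 452 genes at an unadjusted p under 0.05 and 44 called by DESeq2). The difference of log2 changes, colon minus small intestine, was -0.57 ± 0.41 for Mt1, -0.57 ± 0.42 for Mt2, -0.20 ± 0.36 for Sod2 and 1.53 ± 1.27 for Gch1. For Acod1 it could not be estimated, because all PBS libraries were at 0. In PBS-treated mice at 2 h no member passed between regions, where 0.221% of all genes did. Nos2 was not in the fit, and Acod1 was at 0 in both groups. Gch1 was the nearest, lower in the colon by a log2 difference of -2.83 ± 0.96 with no overlap between the groups (adjusted p = 0.225, and 0.0329 by DESeq2), as for 8.16% of all genes in either direction.

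The knockout was compared with the wild type first in mice given LPS. Their libraries also entered the choice of the genes, so the members' values and adjusted p with LPS are a description and not a test. In the small intestine no member passed (0.0134% of all genes, 2 of 14903, did, and 1137 had an unadjusted p under 0.05). All 5 knockout values of Sod2, at most 838 CPM, were below the 4 wild-type values, at least 1065 CPM. Means were 609 ± 226 CPM (SD, n = 5) and 1346 ± 204 CPM (n = 4), and the log2 difference was -1.14 ± 0.34 (edgeR adjusted p = 0.352). Acod1 was likewise lower in every knockout library of the small intestine, at 37.2 ± 5.88 CPM (n = 5) against 105 ± 19 CPM (n = 4), with a log2 difference of -1.50 ± 1.05 (adjusted p = 0.813). Mt2 was the last member without overlap, at 2024 ± 962 CPM against 4248 ± 723 CPM and a log2 difference of -1.07 ± 0.60 (adjusted p = 0.725). Mt1 (-0.74 ± 0.46) and Nos2 (-1.56 ± 1.26) overlapped between genotypes (adjusted p = 0.772 and 0.872). Without mouse 3 the differences were -1.07 for Sod2, -1.57 for Acod1 and -0.99 for Mt2 (adjusted p = 0.665, 0.941 and 0.917). With all libraries the values are thus in separate ranges for 3 members but did not pass the threshold. The levels of these members varied together from library to library. Over all genes tested, 2.82% had separate ranges in these groups and 1.6% had the knockout lower. In the same libraries the 3 mesothelial markers summed to 236 to 781 CPM in the knockout and 144 to 317 CPM in the wild type. Median sums in the knockout and the wild type were 150 and 808 CPM for neutrophil and 713 and 1281 CPM for glial markers. They were 1383 and 793 CPM for macrophage markers. The ranges overlapped for each of these lists, and the part of these cells was not tested. A p that misses the threshold does not show that levels were alike.

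In the colon no member passed either, while 0.429% of genes (64) did. Sod2 averaged 468 ± 264 CPM in the knockout (SD, n = 4) and 1263 ± 481 CPM in the wild type (n = 5), a log2 difference of -1.43 ± 0.35 (adjusted p = 0.0568). This value lay close to the threshold and, like the others with LPS, is a description. It passed with DESeq2 (adjusted p = 0.00285), with sex as a covariate (0.0485) and among mice 11 and above (-1.97, 0.026), but not without mouse 11 (-1.15, 0.155) or without mouse 3 (-1.46, 0.0851). Over 19 alternatives its adjusted p ran from 0.00285 to 0.763 and the log2 difference from -1.97 to -1.15. Acod1 (-2.07 ± 1.12), Mt1 (-1.05 ± 0.47), Mt2 (-1.16 ± 0.62) and Nos2 (-3.80 ± 1.45) were also lower on average in knockout colon, with adjusted p of 0.349, 0.261, 0.346 and 0.195. These sizes rested on single libraries. The Nos2 difference was -1.94 without wild-type mouse 8 and -1.71 among mice 11 and above, and it passed with DESeq2 (adjusted p = 0.0306). Leaving out knockout mouse 2 gave -3.65 for Acod1, -1.48 for Mt1 and -1.86 for Mt2. The Acod1 difference was -1.44 without wild-type mouse 5. Without mouse 3 the colon differences were -2.27 for Acod1 and -1.32 for Mt2 (adjusted p = 0.374 and 0.356). The fibroblast markers in these colon groups summed to 1394 to 15145 CPM (median 14743) in the knockout and 659 to 8597 CPM (median 2899.6) in the wild type. The 6 smooth muscle markers summed to 1209.6 to 4659.9 CPM (median 3307) and 592 to 3088 CPM (median 888), and the part of these cells was not tested. In the colon library of mouse 11 the neutrophil markers summed to 5.08 CPM, the lowest of the 4 knockout colon libraries with LPS, and its part in these differences was not tested beyond leaving it out.

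**Figure D3:**
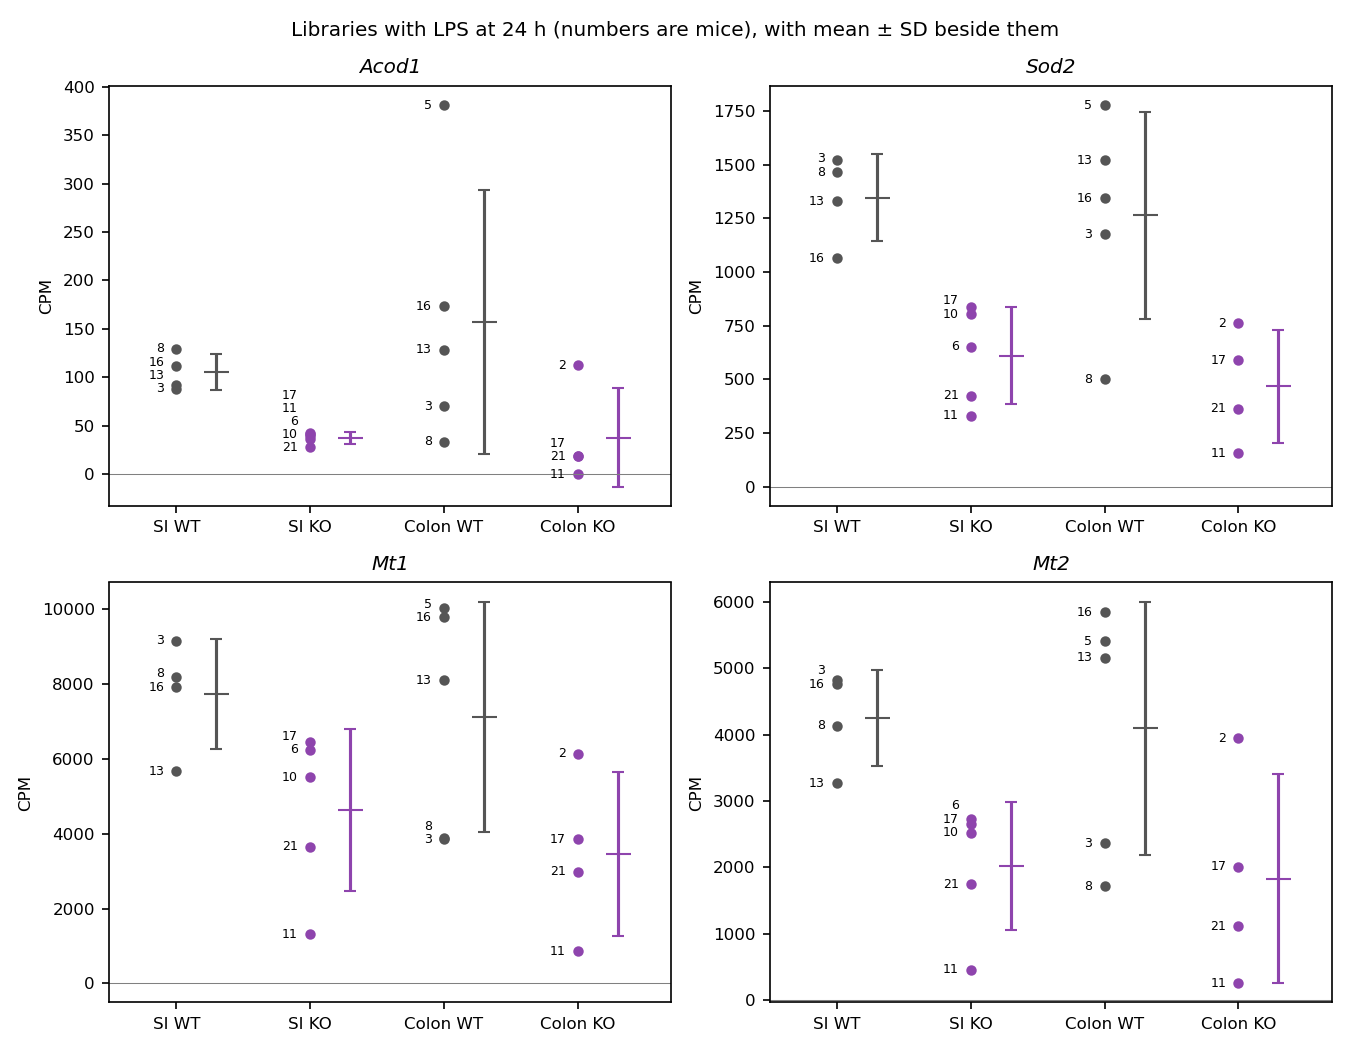
CPM of Acod1, Sod2, Mt1 and Mt2 in the libraries with LPS at 24 h, by region (SI, small intestine) and genotype (WT, wild type; KO, knockout). Points are libraries numbered by mouse, with mean ± SD beside them. Knockout values of Acod1, Sod2 and Mt2 lie below all wild-type values in the small intestine, and mouse 11 is the lowest knockout library in the colon for all 4 genes.

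After PBS no member passed between genotypes in either region, and no other gene did (0% in each, with 256 and 629 genes at an unadjusted p under 0.05 and 58 and 74 called by DESeq2). In the small intestine the log2 differences were 0.41 ± 0.44 for Mt1, 0.72 ± 0.58 for Mt2 and -0.04 ± 0.33 for Sod2 (adjusted p = 1 for each). In the colon Mt2 differed by -1.53 ± 0.61 and Mt1 by -0.79 ± 0.46 (adjusted p = 1 for both), but without mouse 14 the Mt2 value was 0.06.

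The genotype-by-LPS term is the change with LPS in the knockout minus that in the wild type. It too is a difference of the contrasts that chose the genes, so the members' values are a description without p-values. No gene passed in either region (0% in each, with 578 and 2009 genes at an unadjusted p under 0.05 and 59 and 340 called by DESeq2). For Sod2 the knockout change was smaller in both regions, with log2 terms of -1.11 ± 0.47 for small intestine and -1.16 ± 0.49 for colon. Mt1 (-1.15 ± 0.64) and Mt2 (-1.79 ± 0.83) had negative terms in the small intestine. In the colon the terms were -0.25 ± 0.65 for Mt1 and 0.37 ± 0.85 for Mt2, and their signs depended on single mice. The Mt1 term was 0.052 without mouse 11, and the Mt2 term was -1.22 without mouse 14 and -0.70 among mice 11 and above. The Acod1 terms were 1.49 ± 1.96 and 3.60 ± 2.55, and -1.24 and -2.06 without mouse 14. They rest on knockout PBS groups that held 1 count (small intestine) and 0 counts (colon) in all, so their size depends on the prior count of the fit. Those of Gch1 were 0.36 ± 0.72 and 0.46 ± 0.74, with -0.15 in the small intestine among mice 11 and above. The Nos2 term in the colon was -3.17 ± 1.89, and -1.30 without LPS mouse 8.

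Acod1, Sod2, Mt1 and Mt2 varied together from library to library. Over the 37 libraries at 24 h, the 3 genes of all tested whose log2 CPM correlated best with each of these 4 were the other 3. Pearson's r was 0.994 for Mt1 with Mt2, 0.973 for Sod2 with each of Mt1 and Mt2, 0.970 for Acod1 with Sod2, 0.969 with Mt2 and 0.966 with Mt1. Deviations from the group means, which leave out the treatment, correlated at 0.934 for Mt1 with Mt2, at 0.817 and 0.812 for Sod2 with Mt1 and Mt2, and at 0.768 for Acod1 with Sod2. Over the 16 libraries at 2 h the r of Mt1 with Mt2 was 0.994 and that of Acod1 with Sod2 0.816. The points share libraries, treatment groups and mice, so these values describe the libraries and carry no test.

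**Figure D4:**
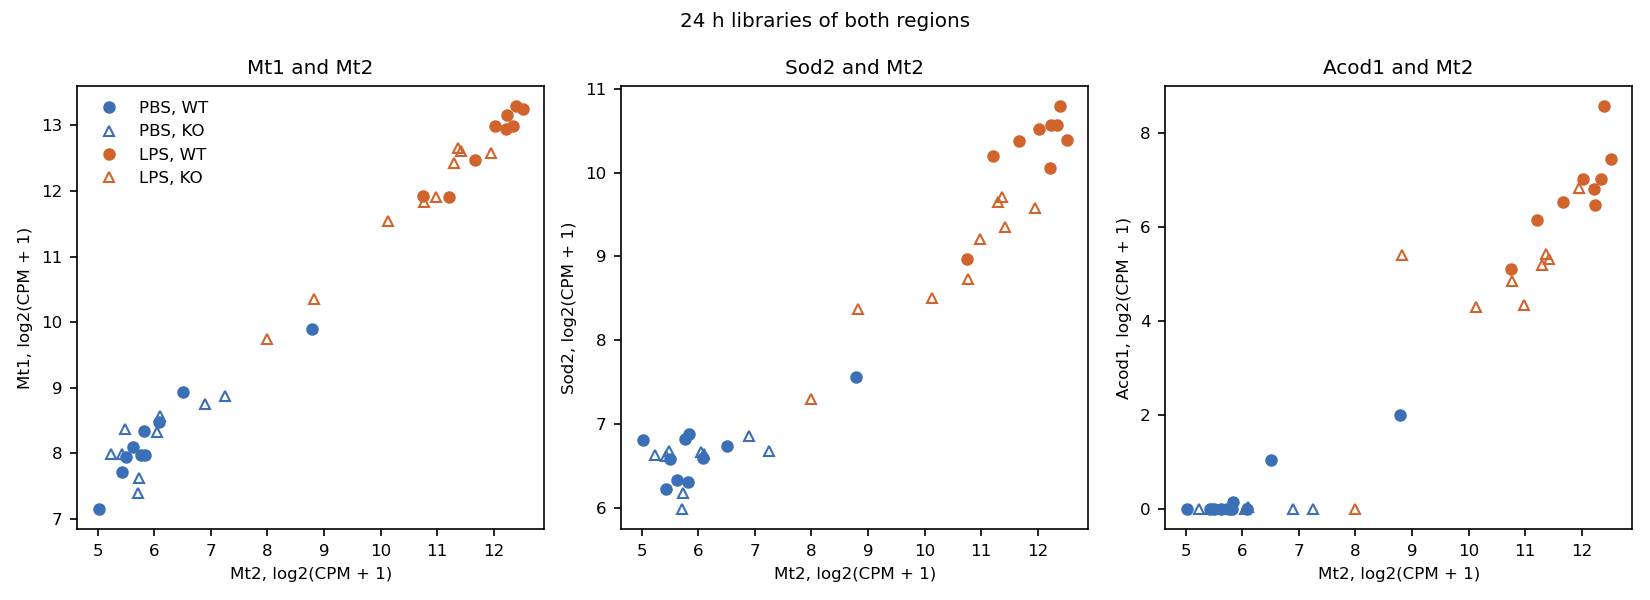
Mt1, Sod2 and Acod1 against Mt2 as log2(CPM + 1) in the 37 libraries at 24 h. Each point is 1 library, blue for PBS and orange for LPS, filled for wild type (WT) and open for knockout (KO). The treatments form 2 clusters, with a wild-type PBS colon library (mouse 14) and a knockout LPS colon library (mouse 11) between them.

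The other 3 members had different nearest genes. Cybb was closest to Bcl2a1b (r = 0.928), Fcgr3 (0.925) and Cd53 (0.898), all known from leukocytes. Gch1 was closest to Rnf125 (0.816), Glul (0.790), which encodes glutamine synthetase, and Acp5 (0.787). Nos2 was closest to Pdhb (0.703), Wars (0.680) and Sdad1 (0.658). Within groups Cybb correlated with Fcgr3 at 0.883. At 2 h the r of Gch1 was -0.17 with Rnf125 and -0.06 with Glul, so those 2 likenesses were not seen there, and 0.72 with Acp5. That of Cybb was 0.32 with Bcl2a1b, 0.83 with Fcgr3 and 0.50 with Cd53.

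Libraries of untreated mice gave the levels of the genes without any injection. Cybb was higher in the submucosal than in the myenteric plexus of both regions. In the small intestine Cybb ran from 7.25 to 196 (median 53.6) CPM in the myenteric plexus and from 264 to 1027 (median 859) CPM in the submucosal plexus, with no overlap. The log2 difference was 3.44 ± 0.91 (edgeR adjusted p = 0.00418). In the colon it gave 0, 8.16, 18.3, 32 and 65.4 CPM and 7.22, 214, 337, 442 and 459.5 CPM, a log2 difference of 3.55 ± 1.01 (adjusted p = 0.0154), with submucosal male 3 inside the myenteric range. The summed macrophage markers ran from 165 to 2633 CPM in myenteric and 2522 to 13848 CPM in submucosal libraries of the small intestine, and from 727 to 1011 and 364 to 6061 CPM in the colon. The 9 glial markers summed to 2122 to 3454 CPM in myenteric and 161 to 450.3 CPM in submucosal libraries of the small intestine. The part of other cells in the difference was not tested.

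In all, 3 of 7 members passed between plexuses in the small intestine, where 43.5% of 14090 genes did, and 1 of 7 (Cybb) in the colon, where 21.8% did. Gch1 was lower in the submucosal plexus of the small intestine, at from 17.9 to 40.6 (median 20.4) CPM against from 24.7 to 176 (median 55.4) CPM, a log2 difference of -1.54 ± 0.45 (adjusted p = 0.00813). In the colon the Gch1 difference was 1.35 ± 0.50 and did not pass (0.0551). Mt2 was lower in the submucosal plexus of the small intestine, at 13.9 ± 7.79 CPM (SD, n = 6) against 36.1 ± 10.3 CPM (n = 6), by a log2 difference of -1.39 ± 0.36 (adjusted p = 0.00381), while Mt1 differed by -0.49 ± 0.26 (0.129). Sod2 did not pass between plexuses, with 109 to 147 and 105 to 175 CPM in the small intestine and 117 to 167 and 113 to 167 CPM in the colon.

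Between regions of untreated mice, 1 of 7 members passed in the myenteric plexus, where 3.19% of all genes did, and none in the submucosal plexus, where 5.18% did. Gch1 was lower in the colon, at 6.38, 6.74, 7.34, 12.6 and 31.7 CPM, than in the small intestine, with a log2 difference of -2.42 ± 0.50 (adjusted p = 0.0123). In the submucosal plexus the colon minus small intestine difference was 1.05 ± 0.38 for Mt2 (0.118). Acod1 held no count in 9 of the 11 untreated myenteric libraries and was at 0 to 14.2 CPM in the submucosal small intestine and 0.127 to 20.5 CPM in the submucosal colon.

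**Figure D5:**
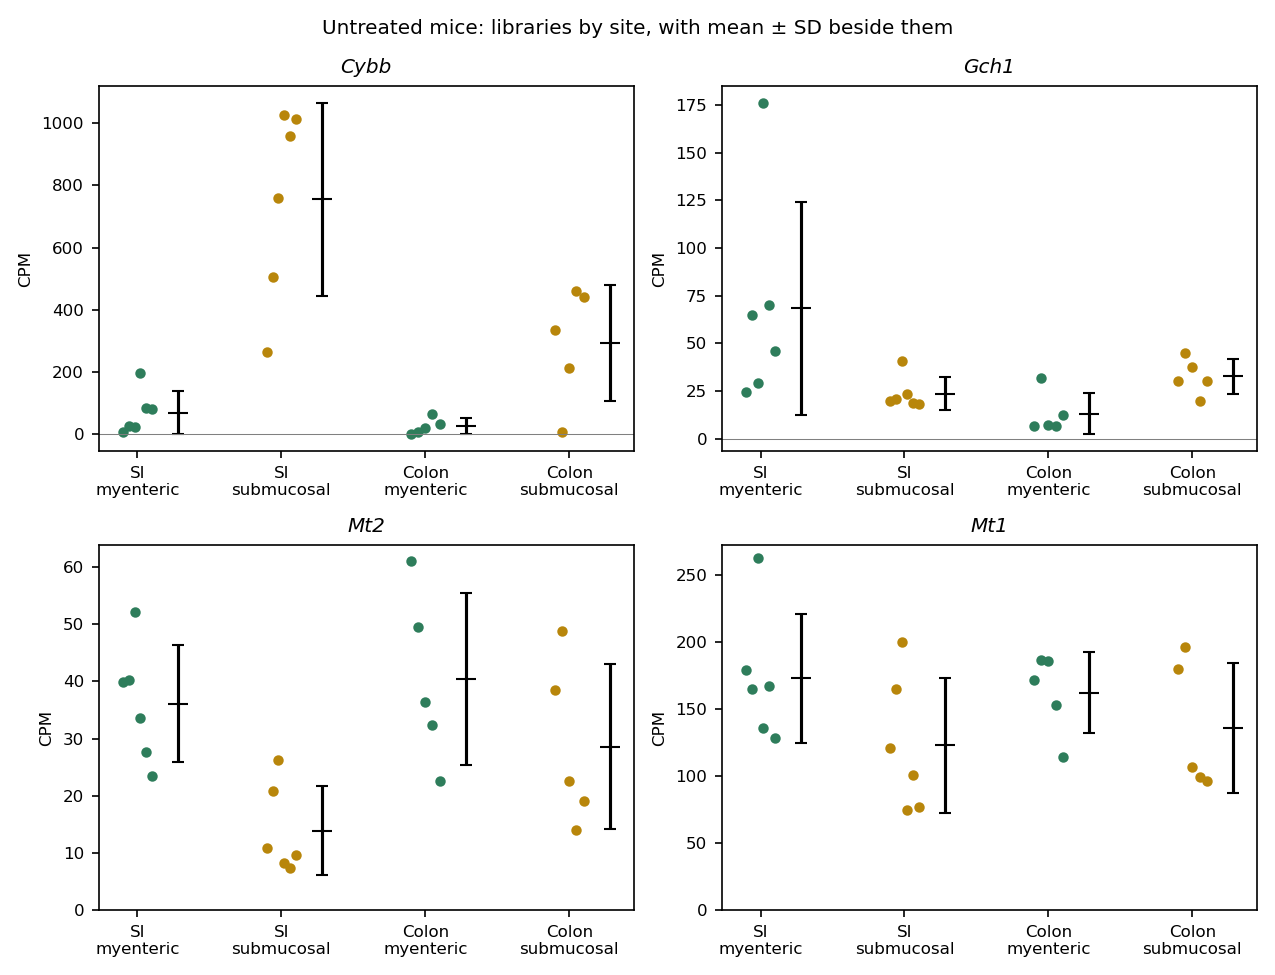
CPM of Cybb, Gch1, Mt2 and Mt1 in untreated mice by site (SI, small intestine). Points are libraries, with mean ± SD beside them. Cybb is higher in both submucosal plexuses, and Gch1 is highest at the myenteric site of the small intestine.

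The rest of these pathways was followed in 84 genes listed by textbook function, in 7 lists. The lists were made with earlier results of these data known, so the values and adjusted p of these genes are a description. At 2 h none of the 80 tested passed in either region, where 1.1% (small intestine) and 0.778% (colon) of all genes did. At 24 h in the wild-type small intestine 8 of 84 were higher and 2 lower with LPS, beside 7.17% of all genes called. In wild-type colon 12 were higher and 5 lower, beside 7.96% of all genes. In the knockout 2 of 84 were higher in small intestine and 1 in colon, beside 0.718% of all genes in each. The median log2 difference over the 84 genes was 0.15 and 0.43 in the wild type and 0.25 and 0.06 in the knockout, in the small intestine and colon. Slc39a14 (ZIP14), a zinc and iron importer on the metal buffering list, was the gene called in all 4 groups. Its level was 4.35 ± 2.32 CPM (SD, n = 6) with PBS and 46.6 ± 27.7 CPM (n = 4) with LPS in the wild-type small intestine, a log2 difference of 3.42 ± 0.63 (adjusted p = 0.000576). The same difference was 3.39 ± 0.72 in wild-type colon (0.00399), 3.57 ± 0.73 in knockout small intestine (0.0105) and 3.32 ± 0.68 in knockout colon (0.0116).

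Of the superoxide and peroxide removal list, 3 of 17 were higher and 1 lower in the wild-type small intestine and 4 higher and 2 lower in the colon, beside the same 7.17% and 7.96% of all genes. Txn1 (thioredoxin) rose by 1.36 ± 0.35 and 1.59 ± 0.38 (adjusted p = 0.0132 and 0.00971) and Txnrd1, its reductase, by 1.05 ± 0.33 and 1.18 ± 0.35 (0.0429 and 0.0357). The Txnrd1 calls held in 9 of 20 and 9 of 19 alternatives. Prdx5, a peroxiredoxin, rose by 0.92 ± 0.20 in the small intestine (0.00367). In the colon Sod3, the extracellular superoxide dismutase, differed by -2.66 ± 0.59 (0.00559), from 666 ± 121 CPM (n = 4) to 106 ± 54.4 CPM (n = 5). The Sod2 and Sod3 differences thus had opposite signs there. In the same groups the 5 fibroblast markers summed to 13545 to 21763 CPM with PBS and 659 to 8597 CPM with LPS, and the 2 markers of interstitial cells of Cajal to 77.6 to 307 and 10.7 to 56 CPM, neither overlapping. Their part in the Sod3 difference was not tested. Among NRF2 and its targets, 2 of 12 were higher in small intestine (7.17% of all genes were called) and 4 in colon (7.96%). They were Gsr, glutathione reductase (1.44 ± 0.38 and 1.69 ± 0.42, adjusted p = 0.0158 and 0.0112), and G6pdx (1.31 ± 0.28 and 1.26 ± 0.31, 0.00324 and 0.0109), in both regions, with Slc7a11, a cystine transporter (6.44 ± 1.92, 0.0349), and Pgd (1.52 ± 0.38, 0.013) in the colon. Slc7a11 passed in 9 of 18 alternatives. The colon value of G6pdx is outside the rule for named genes and was added after it was seen, to complete the 4.

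Of the arginine and nitric oxide list, 1 of 14 was higher and 1 lower in the wild-type small intestine (7.17% of all genes were called), and 1 was higher and 3 lower in wild-type colon (7.96%). Odc1, which makes the polyamine putrescine from ornithine, rose by 1.09 ± 0.26 in the small intestine (0.00731). Ddah2, which degrades inhibitors of nitric oxide synthases, differed by -1.16 ± 0.35 and -1.54 ± 0.35 (0.0372 and 0.0068), and passed in 9 of 20 alternatives in the small intestine. The 2 subunits of soluble guanylate cyclase, the nitric oxide receptor, were lower in wild-type colon, Gucy1b1 by -3.57 ± 0.89 (0.012) and Gucy1a1 by -3.37 ± 0.90 (0.0182). The fibroblast and interstitial cell markers were lower in the same libraries, as given for Sod3, and their part was not tested. Gucy1a1 averaged 235 ± 86.3 CPM (n = 4) with PBS and 22.7 ± 24.6 CPM (n = 5) with LPS. Of the NADPH oxidase list only Cyba, the partner of Cybb, passed, by 0.70 ± 0.20 and 0.92 ± 0.22 (0.0311 and 0.00876), in the small intestine in 11 of 20 alternatives. Of the 16 citric acid cycle genes, Cs, citrate synthase, rose in wild-type colon by 0.91 ± 0.25 (0.0213), passing in 12 of 19 alternatives, and none passed in the other 3 groups. None of the 6 other tetrahydrobiopterin genes passed with LPS at 24 h. None of the 84 genes passed in a genotype comparison or a genotype-by-LPS term. Of all genes, 0% passed in these terms and between genotypes after PBS, whichever the region. Between genotypes with LPS, the shares of all genes were 0.0134% (small intestine) and 0.429% (colon).

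In untreated mice the submucosal plexus was compared with the myenteric plexus in 83 pathway genes. In the small intestine 30 were higher and 12 lower, beside 43.5% of all genes called, and in the colon 29 were higher and 5 lower, beside 21.8% of all genes. Of the NADPH oxidase list 9 of 13 genes were higher in the small intestine and 6 of 13 in the colon, beside the same shares of all genes. Ncf4, a cytosolic subunit, was higher by 4.46 ± 0.91 and 5.94 ± 1.11 (adjusted p = 0.000486 and 0.001), and Rac2 in the colon by 4.15 ± 0.79 (0.00117). The 6 lymphocyte markers summed to 3.33 to 1086 CPM in myenteric and 14063 to 131782 CPM in submucosal libraries of the small intestine, and to 3.07 to 296 and 729 to 44969 CPM in the colon. Their part in the levels of Ncf4 and Rac2, known from leukocytes, was not tested. Noxo1, a partner of the epithelial oxidase Nox1, was higher by 4.63 ± 1.10 in the small intestine (0.00185), where 5 epithelial markers summed to 4.9 to 149 CPM in myenteric and 939.9 to 3995 CPM in submucosal libraries. The part of epithelial cells in this was not tested. Of the arginine genes, Nos1, the neuronal nitric oxide synthase, was lower in the submucosal plexus by -5.96 ± 0.82 and -4.61 ± 0.88 (9.97e-06 and 0.00119). The 7 neuron markers summed to 671 to 2136 CPM in myenteric and 52.1 to 152 CPM in submucosal libraries of the small intestine and to 139 to 331 and 43.3 to 105 CPM in the colon, and their part in the Nos1 difference was not tested. Ass1, which remakes arginine from citrulline, was lower by -3.31 ± 0.43 in the small intestine (5.58e-06). Between regions of the myenteric plexus Ass1 and Asl were lower in the colon (-2.09 ± 0.44 and -1.14 ± 0.27, 0.0131 and 0.0255) and Sod3 was higher (1.81 ± 0.44, 0.0277). Of 17 alternatives, Asl passed in 12 and Sod3 in 10. Noxa1 also passed (0.029), but only 1 of 5 colon and 1 of 6 small-intestinal libraries held a count of it, and without the colon library of female 3 its log2 difference was -1.22. In the submucosal plexus Ddah1 was higher in the colon (2.30 ± 0.45, 0.00439). Metallothionein Mt3 was lower in the submucosal plexus of the small intestine by -1.55 ± 0.42 (0.00504), as Mt2 was.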

How the data were processed

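The 2 deposited tables hold raw counts of reads for each gene, with 1 column per library, made by the authors per the submitters' processing notes with Trim Galore 0.4.4, STAR 2.5.3, DESeq2 and the build GRCm38. The counter, the annotation and the use of strand are not given in the sources used here. Per the labels' protocols, libraries were made with Smart-seq2, which carries no molecular identifiers, so intervals cover counting error only.

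Each of the 3 experiments was fitted on its own with edgeR 4.0.16 in R 4.3.3 (filterByExpr on the groups, which kept 14090 untreated, 13107 2 h and 14903 24 h genes, TMM, glmQLFit, glmQLFTest, two-sided, Benjamini-Hochberg adjustment over all genes tested, threshold 0.05). All groups of an experiment entered 1 fit, and 18 contrasts were taken. Each standard error is the absolute log2 fold change over the square root of F. For a group at 0, the fold was set against 3 counts in its shallowest library. Alternatives were RLE size factors, DESeq2 1.42.0, no filter, sex as a covariate, the replicate block, the compared groups alone, a covariate for mouse numbers up to 10, mice 11 and above, and each library left out. Leaving out mouse 3, 11 or 14 in both regions was added after seeing the data. The script was tested on simulated counts.

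The members and the pathway and marker lists were chosen with earlier results of these data known. The list held 8 genes, and 1 of them is not reported here. The text names the other 7. Of each pathway list it names up to 3 genes per contrast, those with the largest absolute log2 fold change past the threshold, and for likeness the 3 genes with the highest Pearson r of log2 CPM (prior count 2) for each member with a mean of at least 1 CPM. In the untreated and 2 h experiments replicates share only a number. At 24 h a replicate is a mouse, and compared groups share none. The labels do not say how separate the replicates were in handling, so p-values measure only the spread between these samples, which may in part be technical. Across 143 pairs of replicates, 0 were identical, and the chi-square per degree of freedom ran from 16.5 to 381. Total counts had medians of 5449397, 4412983 and 8286820 in the untreated, 2 h and 24 h experiments.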

Additional observations from a re-analysis of the deposited data

Results flagged for a closer look

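Within groups of 4 to 10 libraries, 23 of 112 sets of 1 member in 1 group held a library far from all others (Dixon's gap rule). The cut-offs are met in about 1 in 20 sets of normally distributed values. CPM levels are not normally distributed and often hold 0, so that rate need not hold here. The outlying library was the highest in 22 of them. Some rest on a single count among libraries at 0, and all values here are levels in CPM.

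The PBS colon library of wild-type mouse 14 stood highest of its group for 4 members, with Acod1 at 3.03, Sod2 at 187, Mt1 at 949.9 and Mt2 at 443. Its small-intestinal library was the highest for Acod1, at 1.07. In the colon of LPS-treated mice, knockout mouse 2 was far above the rest for Acod1 (113) and Cybb (151), wild-type mouse 3 for Cybb (300.2), and wild-type mouse 8 for Nos2 (128).

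Among the other PBS libraries at 24 h, Acod1 held 1 count in the small intestine of knockout mouse 20 (0.0311), and Nos2 was at 0 in that of knockout mouse 7, the only set whose outlying library was the lowest.

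At 2 h, female 3 held the outlying values of Nos2 in the PBS colon (0.333, 1 count) and in the PBS small intestine (1.41). Male 4 was highest for Nos2 in the LPS small intestine (6.75) and male 2 for Mt2 in the PBS small intestine (53.1).

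In untreated mice the myenteric outliers of the colon were Acod1 in male 1 (4.35), Gch1 in male 2 (31.7) and Sod2 in male 3 (167). Those of the small intestine were Acod1 in male 3 (3.48) and Gch1 in female 1 (176). In the submucosal plexus, Acod1 was highest in the library numbered female 1 in both the colon (20.5) and the small intestine (14.2), and Gch1 in male 3 of the small intestine (40.6).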

How the results depend on the processing

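Of the alternative values of single genes, 2530 kept their direction and their side of the threshold, 185 lost and 26 gained the threshold, and 19 reversed. Of the alternative counts of members past the threshold, 321 were within 1.5 times the main count or equal to it, and 22 were not. The cause was not tested in any case. The count went from 2 to 4 members at 2 h in the colon with DESeq2, and from 4 to between 2 and 3 at 2 h in the small intestine when 1 library was left out, where Acod1 lost its call in all 8 such fits and Sod2 kept it in 3. It went from 4 to 2 in the knockout colon with the compared groups alone, and from 0 to 1 between regions after PBS with DESeq2. Between regions of the untreated submucosal plexus it went from 0 to 1 with sex and with the replicate block, and was 0 to 1 without 1 library. Between plexuses of the colon it was 1, 2 with RLE size factors, with DESeq2 and with the replicate block, 0 with the compared groups alone and 1 to 2 without 1 library. Between genotypes in the LPS colon it was 0, 2 with DESeq2, 1 with sex, 1 among mice 11 and above and 0 to 1 without 1 library.

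Among differences with LPS, Cybb ran from -0.85 to 1.48 in knockout colon and from -1.39 to 0.99 in the 2 h colon without 1 library, and Nos2 in knockout colon reversed to -0.23 among mice 11 and above. Reversals of the genotype-by-LPS term in the colon were Mt1 at 0.052 without mouse 11 (-0.98 to 0.052 without 1 library) and Mt2 at -0.70 among mice 11 and above and -1.22 without mouse 14 (-1.24 to 0.73 without 1 library). The Acod1 term was -2.06 in the colon (-2.06 to 4.27 without 1 library) and -1.24 in the small intestine (-1.23 to 2.48) without mouse 14, and the Gch1 term in the small intestine -0.15 among mice 11 and above (-3.6e-05 to 0.60 without 1 library). Mt2 between genotypes in the PBS colon was 0.062 without mouse 14 (-1.84 to 0.075 without 1 library). The Sod2 region-by-LPS term was -0.35 to 0.12 and Noxa1 between myenteric regions -1.22 to 7.90 without 1 library.

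Over all genes, the number past the threshold was highest with DESeq2 in most comparisons, at 277 against 102 (2 h colon), 261 against 144 (2 h small intestine), 474 and 527 against 107 each (knockout colon and small intestine), 2255 against 1186 and 1875 against 1069 (wild-type colon and small intestine), 500 against 29 (regions after PBS), 987 against 449 (myenteric regions) and 1149 against 730 (submucosal regions). Where the main count was 0, DESeq2 called 340 and 59 genes for genotype by LPS in colon and small intestine, 74 and 58 between genotypes with PBS, and 44 for region by LPS, and it called 719 against 64 and 182 against 2 between genotypes with LPS. With the compared groups alone the knockout colon had 7, the wild-type colon 412, the 2 h colon 63 and the colonic plexuses 1902 against 3069. Same-numbered libraries deviated together weakly, with mean correlations of 0.0213 to 0.184 against -0.0317 to -0.00439 for the others. Each library correlated best with its own number only at 2 h in the colon. Whether a number marks the same mouse cannot be told from these values, and the main fit did not use the numbers as pairs. Groups with 0 to 3 counts in all (Acod1 with PBS at 2 h and in the knockout, Nos2 with PBS in the 2 h colon) give ratios known only within their counting intervals.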
